A study of Saccharomyces cerevisiae with 21 samples.

Results

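Heat stress was compared with no heat stress in cells of the budding yeast Saccharomyces cerevisiae that had all been given ISP1. ISP1 is myriocin, per the design text of the series, a compound that inhibits the first enzyme of sphingolipid synthesis. The comparison set 3 arrays of cells grown in the rich glucose medium YPD and treated for 45 min with heat stress and ISP1 against 3 arrays of cells in YPD treated for 45 min with ISP1 alone. These are 6 of the 21 arrays of the study, chosen by their titles. The other groups are YPD control, YPD with heat stress for 45 min, and 3 groups in synthetic complete medium. Both groups compared carry the inhibitor, so every change reported is a change with heat on top of ISP1. For some genes and gene groups the same change without ISP1 (heat against control in YPD, arrays shared with neither group) is given beside it. A value given alone does not mean that the change was alike without ISP1. The labels used here give no strain, mating type, temperature, ISP1 dose or vehicle, nor say whether ISP1 was added before heat or with it. Nor do they say whether the 3 arrays of a group are separate cultures, so p-values rest on a spread that may be technical.

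As background, a heat shock in yeast is answered through a pair of transcription programmes. Hsf1 drives chaperone genes when misfolded protein occupies Hsp70, and Msn2 and Msn4 drive the general stress genes, among them those of trehalose, glycogen and antioxidant defence, when protein kinase A activity drops. Genes for ribosome assembly, ribosomal proteins and the cell cycle are known to fall at the same time. Heat also raises sphingoid bases and ceramides by way of serine palmitoyltransferase, the enzyme that ISP1 blocks, which the Orm proteins restrain and which Ypk1 regulates through them.

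Signals are the deposited log2 values, on which 1 unit is a 2-fold difference. Replicate arrays correlated across genes with r between 0.993 and 0.998 in all 4 YPD groups. In each of these groups array 1 stood slightly apart from the other two. For heat with ISP1, r was 0.9937 and 0.9933 against 0.9983 between arrays 2 and 3, and for heat alone 0.9928 and 0.9948 against 0.9981. Signal of the poly-A spike-in probe sets averaged 7.49 ± 0.05 (SD, n = 3) with ISP1 and 8.19 ± 0.37 with heat and ISP1. It also averaged 7.47 ± 0.11 in the control and 7.85 ± 0.13 with heat alone. The heated and unheated arrays did not overlap in this signal, with ISP1 or without it, and its part in the results was not tested. The gap between 3' and 5' probe sets, a sign of RNA quality, overlapped between heated and unheated arrays with ISP1 for all 5 control genes on the array. It was 0.52 in both groups for ACT1, the actin gene, and for SPT15 it averaged 1.63 ± 0.12 with ISP1 and 1.80 ± 0.068 with heat and ISP1. Without ISP1 the heated arrays lay wholly above the controls in this gap for SPT15 (1.75 ± 0.076 against 1.54 ± 0.17) and SRB4, and wholly below them for ACT1. The part of this gap in the results was not tested. The deposited values are quantile normalized by RMA, so a change shared by most transcripts would not show in them.

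Among 5449 genes, heat in ISP1-treated cells raised 2179 (40.0%) and lowered 2027 (37.2%), at an adjusted p under 0.05 by limma with Benjamini-Hochberg adjustment over all genes. In all, 4206 genes (77.2%) were called, and 1105 (20.3%) were called with a change of at least 2-fold, of which 504 (9.25%) rose and 601 (11.0%) fell. The 3 arrays of one group lay wholly above or below the 3 of the other for 4329 genes (79.4%). The same test called 4394 genes (80.6%) for heat without ISP1. Rose and fell are used below only of called genes, and every count of a gene group is to be read against these shares. The median change over all genes was 0.035.

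Across the 5449 genes, which are not independent replicates, the change with ISP1 correlated with the change without it at a Pearson r of 0.903 and a Spearman rank correlation of 0.901, and 87.0% of genes had the same sign. The 2 differences come from separate arrays. Of the 2179 genes that rose with ISP1, 1833 (84.1%) also rose without it and 57 fell. Of the 2027 that fell with ISP1, 1793 (88.5%) also fell without it and 61 rose. Changes had an SD across genes of 0.864 with ISP1 and 1.11 without it, and a median size of 0.443 and 0.552.

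**Figure D1:**
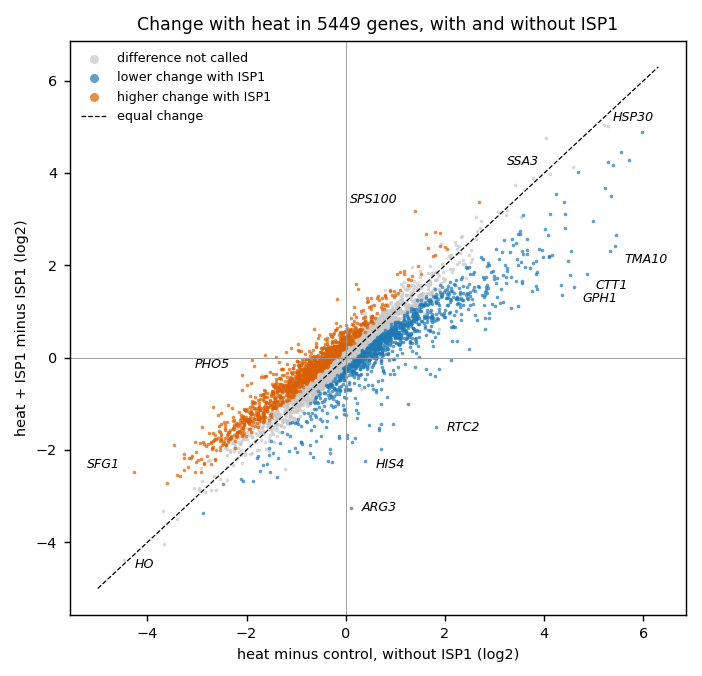
Change of 5449 genes with heat, without ISP1 (x axis, heat minus control, log2) and with ISP1 (y axis, heat with ISP1 minus ISP1, log2), 1 point per gene from means of 3 arrays. The points form a band with a Pearson r of 0.903. CTT1, GPH1 and TMA10 are among the blue points, whose change was lower with ISP1, and ARG3, HIS4 and RTC2 at the lower right fell by more than 1 unit with ISP1 and had values above 0 without it.

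Where the 2 heat changes differed was tested with the interaction, which is the change with ISP1 minus the change without it. It called 2231 genes (40.9%), 1188 (21.8%) with a higher and 1043 (19.1%) with a lower value. A lower value means a smaller rise or a deeper fall with ISP1, and a higher value a larger rise or a shallower fall. A difference of at least 2-fold was called for 271 genes (4.97%). Of the genes that rose with ISP1, 625 (28.7%) were lower in the interaction and 292 (13.4%) higher, and of those that fell, 665 (32.8%) were higher and 273 (13.5%) lower. Centring each array on its median turned the balance of the interaction calls to 1019 higher and 1238 lower.

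The largest rises, taken from called genes whose groups did not overlap, were of genes for membrane proteins, minor isozymes of sugar metabolism and chaperones. HSP30, which encodes a plasma membrane protein that restrains the proton pump Pma1, had 9.64, 9.42 and 9.41 with ISP1 alone and 14.49, 14.52 and 14.57 with heat and ISP1. Its rise was 5.04 ± 0.12 (SE, 3 arrays per group), or 32.9-fold, with an adjusted p of 2.37e-16, and without ISP1 the change was 5.19. TKL2, for the minor transketolase, had 9.08, 7.92 and 7.93 with ISP1 alone and 13.48, 13.29 and 13.24 with heat and ISP1. Array 1 of TKL2 lay about 1 unit above its neighbours without heat, but all 3 heated arrays lay far above every unheated one, and the rise was 5.03 ± 0.24. YNL194C and FMP45, which encode Sur7-family membrane proteins, rose by 4.88 ± 0.18 and 4.18 ± 0.11. SPG4, needed for survival of heat in stationary phase, rose by 4.75 ± 0.26. ALD3, for a cytosolic aldehyde dehydrogenase, rose by 4.27 ± 0.14, HXT5, for a hexose transporter, by 4.23 ± 0.18, and GND2, for the minor 6-phosphogluconate dehydrogenase, by 4.14 ± 0.14. The wall protein gene SPI1 rose by 3.67 ± 0.14, PHM7 by 4.46 ± 0.17, the uncharacterised YNL195C by 3.74 ± 0.15, and SHH3, a homologue of the succinate dehydrogenase anchor gene, by 3.54 ± 0.19. The other 3 of the 15 largest rises, SSA4, SSA3 and BTN2, are described with the chaperones.

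The largest falls were of genes for the mating-type switch, the cell cycle, the wall and amino acid synthesis. HO, for the endonuclease that switches mating type, had 11.85, 11.52 and 11.64 with ISP1 alone and 7.39, 7.22 and 7.22 with heat and ISP1. It fell by 4.39 ± 0.10, to a level 21-fold lower, with an adjusted p of 2.48e-16, and the change without ISP1 was -4.47. RNR1, for the large subunit of ribonucleotide reductase, had 12.22, 12.05 and 12.07 with ISP1 alone and 8.77, 8.55 and 8.50 with heat and ISP1, and CLB1, for a mitotic cyclin, 11.69, 11.62 and 11.56 with ISP1 alone and 8.16, 8.25 and 8.37 with heat and ISP1. In neither gene did the groups overlap, which was a condition of their choice. RNR1 fell by 3.51 ± 0.081 and CLB1 fell by 3.36 ± 0.078. TOS6 and SCW10, for wall proteins, fell by 4.05 ± 0.17 and 2.74 ± 0.064. CIN2, for a tubulin folding factor, fell by 2.90 ± 0.11 and YMC2, for a mitochondrial carrier, by 2.68 ± 0.16. INA1, AIM20 and YAR068W, whose products are little characterised, fell by 3.32 ± 0.16, 2.82 ± 0.10 and 2.83 ± 0.11. The other 5 of the 15, ARG3, LEU9, LYS4, CLB6 and KRE33, are taken up with their groups.

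**Figure D2:**
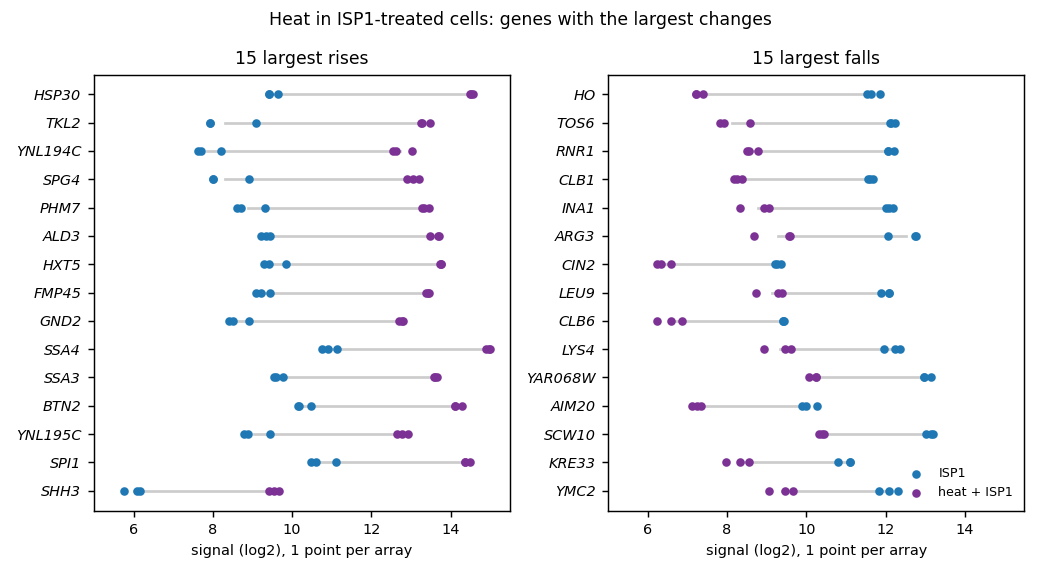
Signal (log2) on each of the 3 ISP1 arrays (blue) and the 3 heat with ISP1 arrays (purple) for the 15 genes with the largest rises (left) and the 15 with the largest falls (right), with grey lines between group means. The 2 sets of points are separate in each gene because non-overlap was a condition of the choice, and TKL2, SPG4 and PHM7 each have 1 ISP1 array above the other two.

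The heat-induced chaperone genes were among the strongest rises. SSA4, the heat-induced Hsp70 gene, had 10.91, 10.76 and 11.12 with ISP1 alone and 14.99, 14.96 and 14.90 with heat and ISP1. It rose by 4.02 ± 0.14, and since its heated arrays read at the highest signals of the arrays, which were 14.98 to 15.07, this rise can only be taken as a lower limit. SSA3, the other heat-induced Hsp70 gene, rose by 3.98 ± 0.10 against 4.12 without ISP1. All 5 measured genes of the disaggregase, small heat shock and aggregate-sorting proteins rose, with a median of 3.05 against 3.52 without ISP1. BTN2 and CUR1, which sort misfolded proteins, rose by 3.90 ± 0.14 and 3.05 ± 0.13, HSP26 and HSP42, the small heat shock proteins, by 3.05 ± 0.22 and 2.24 ± 0.12, and HSP104, the disaggregase, by 1.5 ± 0.070. Of the 5, HSP42 and HSP104 rose less than without ISP1, with an interaction of -1.42 ± 0.16 for HSP42 and -0.62 ± 0.10 for HSP104. The heated means of both genes were above 14, about 1 unit or less from the highest signals, with and without ISP1. The 1 member with heated means under 14, CUR1, was not called in the interaction, and the part of signal saturation was not tested.

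Some Hsp70 and Hsp90 partner genes had a larger rise with ISP1 than without it, most of them at heated signals near the top of the range. YDJ1, the main cytosolic J-domain protein, had 13.04, 13.02 and 12.89 with ISP1 alone and 14.38, 14.33 and 14.32 with heat and ISP1. The rise was 1.36 ± 0.053 against 0.78 without ISP1, a difference of 0.58 ± 0.074 (adjusted p = 8e-06). The unheated ISP1 arrays of YDJ1 were below all 3 control arrays, at 13.77, 13.72 and 13.71. The heated levels were 14.34 ± 0.032 (SD) with and 14.51 ± 0.023 (SD) without ISP1. SIS1, another J-domain protein, rose by 2.19 ± 0.071 against 1.76 (interaction 0.43 ± 0.10). FES1, a nucleotide exchange factor of Hsp70, rose by 2.39 ± 0.076 against 2.00 (interaction 0.38 ± 0.11). Among Hsp90 genes, AHA1, the activator of its ATPase, rose by 2.43 ± 0.083 against 1.90 (interaction 0.52 ± 0.12), and STI1, which links Hsp70 to Hsp90, by 1.68 ± 0.055 against 1.30 (interaction 0.38 ± 0.078). HSP82 itself rose by 2.62 ± 0.090 and CPR6, its cyclophilin partner, by 1.84 ± 0.066. SSE2, the stress-induced Hsp110 gene, rose by 3.12 ± 0.10 against 4.11 and was lower in the interaction (-0.99 ± 0.14).

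By count, 12 of 22 genes of cytosolic Hsp70, Hsp110 and their partners rose, 9 fell and 1 was not called, with a median of 0.49 against 0.34 without ISP1. The interaction was higher for 4 and lower for 3, and among the 15 members with heated means under 14 it was higher for 0 and lower for 2. Heated levels were lower with ISP1 than without it for 6 of the 22 and higher for 0. ISP1 alone differed from the control by a median of -0.22 over the 22 genes. Of 14 Hsp90 genes, 10 rose and 4 fell, among them PPT1, the Hsp90 phosphatase, which fell by 1.67 ± 0.12, and the interaction was higher for 6 and lower for 0. Of the 8 Hsp90 genes with heated means under 14 it was higher for 3. Heated levels were lower with ISP1 for 3 of the 14 Hsp90 genes and higher for 0. ISP1 alone differed from the control by a median of -0.30 over the 14. The largest difference of heat with ISP1 from heat alone was 0.11 in the Hsp70 list and 0.11 in the Hsp90 list. Mitochondrial chaperones rose in 8 of 10, led by MDJ1, the Hsp70 partner of the matrix, with 2.57 ± 0.12. HSP78, the mitochondrial disaggregase, rose by 2.33 ± 0.070 against 3.66 without ISP1 (interaction -1.33 ± 0.10), where its heated mean was just above 14. In the endoplasmic reticulum 15 of 18 folding genes rose, including MPD1 and ERO1, which form disulfides, by 2.41 ± 0.067 and 2.35 ± 0.052, and KAR2, the Hsp70 of that compartment, by 1.14 ± 0.056. Genes of the CCT chaperonin and prefoldin went the other way, 13 of 15 falling by small amounts, with a median of -0.28.

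The general stress genes driven by Msn2 and Msn4 rose nearly without exception, but by much less than without ISP1. Of 36 measured members, 35 rose and 1 was not called, with a median of 1.18 against 2.83 without ISP1. The interaction was lower for 33 of the 36 and higher for none, beside 19.1% lower and 21.8% higher among all genes. CTT1, the cytosolic catalase, had 12.73, 12.64 and 12.57 with ISP1 alone and 14.44, 14.49 and 14.43 with heat and ISP1. Without ISP1 its arrays read 9.83, 9.38 and 9.22 in the control and 14.39, 14.29 and 14.32 with heat. The rise of CTT1 was thus 1.81 ± 0.10 with ISP1 and 4.85 without, a difference of -3.04 ± 0.15 (adjusted p = 1.26e-10). The unheated ISP1 arrays lay more than 2 units above the controls, while the heated arrays of the 2 groups lay close together.

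GPH1, the glycogen phosphorylase, followed the same pattern. Its signals were 12.41, 12.11 and 12.23 with ISP1 alone and 13.79, 13.84 and 13.69 with heat and ISP1, beside 9.60, 9.12 and 8.91 in the control and 13.94, 13.74 and 13.72 with heat alone. The rise was 1.52 ± 0.12 against 4.59 (interaction -3.06 ± 0.17). PGM2, the main phosphoglucomutase, rose by 1.57 ± 0.10 against 4.33 (interaction -2.76 ± 0.14), and TPS1, which makes trehalose phosphate, by 1.17 ± 0.085 against 2.56 (interaction -1.39 ± 0.12). HSP12, a small membrane-associated stress protein, rose by 0.81 ± 0.18 against 2.64 (interaction -1.83 ± 0.25). The 3 members whose difference was not called were the chaperone genes SSA3 and HSP26 and the repressor gene XBP1, which rose by 2.11 ± 0.13 against 2.36.

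For the levels reached, heat with ISP1 was set against heat without it. The difference was not called for 30 of the 36 general stress genes, called higher for 5 and lower for 1, beside 32.7% called of all genes. The differences ranged from -0.31 to 1.31, with a median of 0.050. For CTT1 it was 0.12 ± 0.10, for GPH1 -0.024 ± 0.12 and for HSP12 0.011 ± 0.18. Many of these genes reached high signals with heat. Of the 19 members whose heated means stayed under 14 in both groups, 17 were still lower in the interaction, while the part of signal saturation in the others was not tested.

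**Figure D3:**
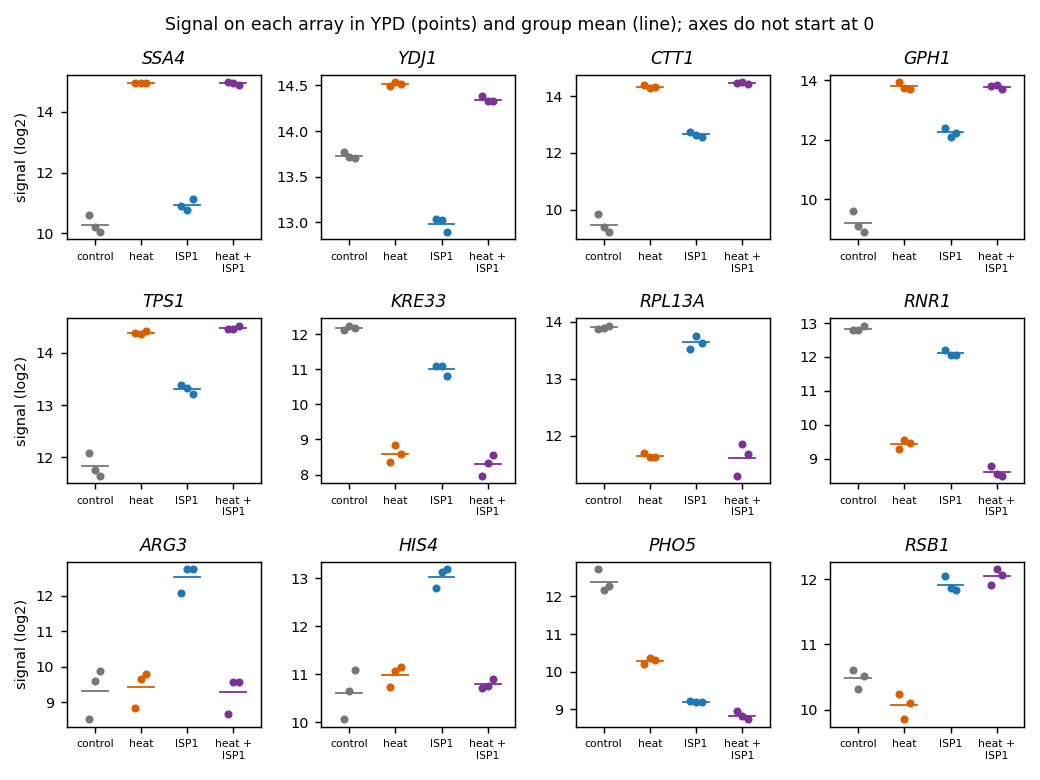
Signal (log2) on each of 3 arrays in the 4 YPD groups for 12 genes named in the text, with the group mean as a line. In CTT1, GPH1 and TPS1 the ISP1 arrays lie between control and heat, in ARG3 and HIS4 the ISP1 arrays stand above the other 3 groups, and in PHO5 both ISP1 groups lie below heat alone.

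Trehalose genes rose in 9 of 10 cases, with a median of 1.19 against 2.39 without ISP1. TPS2 and TSL1, further subunits of the synthase, rose by 1.17 ± 0.084 and 1.19 ± 0.11, and NTH1, the neutral trehalase that breaks trehalose down, by 1.57 ± 0.058. The list shares members with the general stress list, and the interaction was lower for 8 of its genes. Of 13 glycogen genes 11 rose, with a median of 1.07 against 1.76 without ISP1. The interaction was lower for 9 of the glycogen genes and higher for 1. ISP1 alone differed from the control by a median of 1.17 in trehalose and 1.61 in glycogen genes. Levels reached with heat were higher with ISP1 for 2 of 10 trehalose and 4 of 13 glycogen genes. They were lower for 0 in each list and not called for the rest. GIP2 and GAC1, which target a phosphatase to glycogen enzymes, rose by 2.79 ± 0.18 and 2.14 ± 0.25, GSY2, the glycogen synthase, by 1.30 ± 0.093, and GLC3, the branching enzyme, by 1.07 ± 0.18.

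Of 19 measured hexose transporter and glucose sensor genes 7 rose, 7 fell and 5 were not called. Of 22 genes of glycolysis and hexose kinases 16 rose, 1 fell and 5 were not called, with a median of 0.24. The 16 became 12 with quantile normalization over the yeast probe sets and 14 with the replicate block. It became 13 after median centring or without array 1 of heat with ISP1. Only 8 of the 22 had heated means under 14 with and without ISP1, and 7 of these rose. In the pentose phosphate pathway, TKL2 and GND2 rose as above, NQM1, a transaldolase paralogue, rose by 3.38 ± 0.15, and SOL4, a 6-phosphogluconolactonase, by 2.65 ± 0.12. SOL4 had 11.28, 10.94 and 11.10 with ISP1 alone and 13.61, 13.96 and 13.70 with heat and ISP1, and its rise was far smaller than the 5.44 seen without ISP1 (interaction -2.79 ± 0.17). RKI1, the ribose-phosphate isomerase, fell by 2.18 ± 0.12. The pathway's counts were 8 up, 4 down and 2 not called of 14. HXT1 and HXT3, the low-affinity glucose transporters, fell by 2.02 ± 0.19 and 1.78 ± 0.11, while HXT5 rose. HXT7, a high-affinity transporter read by a probe set that can bind related transcripts, changed by 0.0045 ± 0.11, which was not called, against 1.47 without ISP1 (interaction -1.47 ± 0.15). The kinase genes HXK1 and GLK1 rose by 0.62 ± 0.15 and 0.81 ± 0.082 against 2.81 and 2.32 without ISP1.

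Antioxidant genes rose in 19 of 25 cases and the interaction was lower for 15. ISP1 alone differed from the control by a median of 0.31 in this list. With heat, levels were higher with ISP1 for 7, lower for 2 and not called for 16. GPX1, a glutathione peroxidase, rose by 3.08 ± 0.10, TSA2, a peroxiredoxin, by 2.18 ± 0.095 and SRX1, the sulfiredoxin, by 1.41 ± 0.10. GPX2, another glutathione peroxidase, fell by 1.41 ± 0.076. Proteasome genes rose as a block of small changes, 32 of 34 with a median of 0.49 against 0.58 without ISP1. In the interaction 3 members were lower, or 7 after median centring and 5 with the replicate block. This count was 2 with quantile normalization over the yeast probe sets and 1 without array 1 of heat with ISP1. RPN11, the deubiquitinating subunit, rose by 1.02 ± 0.070 and RPN4, the factor that drives proteasome genes, by 0.72 ± 0.088. UBI4, the stress-induced polyubiquitin gene, rose by 1.32 ± 0.073 against 2.78. Of 25 autophagy genes 23 rose, with a median of 0.74 against 1.09 without ISP1. The interaction was lower for 11 of the autophagy genes and higher for 2. ISP1 alone differed from the control by a median of 0.44 in these genes. Levels reached with heat were higher with ISP1 than without it for 13 of the 25, lower for 0 and not called for 12. ATG8, whose product is coupled to the autophagosome membrane, rose by 1.80 ± 0.066 against 3.17.

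In the Ras and protein kinase A pathway, RAS1 fell by 1.46 ± 0.086, while PDE1, a cAMP phosphodiesterase, rose by 1.61 ± 0.080, YAK1, a kinase that opposes growth, by 1.55 ± 0.11, IRA2, which switches Ras off, by 1.37 ± 0.072, and BCY1, the inhibitory subunit of protein kinase A, by 1.05 ± 0.053. In all 10 of 16 genes rose and 4 fell. Of 21 stress transcription factor genes 16 rose, among them USV1 by 1.45 ± 0.14, GIS1 by 1.33 ± 0.089 and MGA1 by 1.64 ± 0.14.

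Genes of ribosome assembly fell together, from unheated levels that were lower with ISP1 than in the control, with a median difference of -0.99 for the small and -1.01 for the large subunit. KRE33, an RNA acetyltransferase of the small subunit processome, had 11.11, 11.10 and 10.81 with ISP1 alone and 7.97, 8.33 and 8.56 with heat and ISP1. It fell by 2.72 ± 0.13 against -3.60 without ISP1 (interaction 0.89 ± 0.18). In the small subunit processome 49 of 50 genes fell, with a median of -1.61 against -2.13, and the interaction was higher for 31 and lower for 0. Of large subunit assembly factors all 61 measured fell, with a median of -1.64 against -2.21, and the interaction was higher for 44 and lower for 0. RRP5, which serves both subunits, fell by 2.25 ± 0.12, NOP13 by 2.56 ± 0.17 and URB1 by 2.43 ± 0.14. DHR2, a helicase, fell by 1.89 ± 0.12 against -3.46 (interaction 1.57 ± 0.17), and LRP1, an exosome cofactor, by 1.06 ± 0.10 against -2.67 (interaction 1.61 ± 0.14).

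The levels reached with heat were lower with ISP1 than without it for 36 of the 50 processome genes and 46 of the 61 large subunit factors, and higher for none. For KRE33 the difference was -0.30 ± 0.13 (adjusted p = 0.0772) and for DHR2 it was -0.29 ± 0.12 (adjusted p = 0.0713), neither of them called. Of genes for RNA polymerases I and III 27 of 37 fell, led by the large subunits RPA190 and RPA135 of polymerase I with 2.47 ± 0.094 and 2.31 ± 0.066. RRN3, a polymerase I initiation factor, fell by 0.42 ± 0.13 against -1.71 (interaction 1.30 ± 0.19). The fall of RRN3 was not called without array 1 of heat with ISP1 (adjusted p = 0.0761).

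Cytosolic ribosomal protein genes fell in 126 of 127 cases, with a median of -0.88 that lay close to the -0.81 without ISP1. The interaction was called for 8 higher and 8 lower, beside 40.9% of all genes. These counts were 4 and 18 after median centring and 22 and 5 without array 1 of heat with ISP1. RPL13A had 13.53, 13.76 and 13.64 with ISP1 alone and 11.30, 11.84 and 11.68 with heat and ISP1 and fell by 2.03 ± 0.093, and RPS0B, of the small subunit, fell by 1.96 ± 0.10. The 1 gene of the list that rose was RPL15B, with 0.49 ± 0.11, singled out after its value was seen. Many ribosomal protein genes have near-identical copies, so signal cannot always be assigned to 1 of a pair. Translation factor genes fell in 31 of 37 cases, TIF4631, the scaffold eIF4G, by 1.88 ± 0.061 and TIF3 by 1.56 ± 0.074, whereas HEF3, a paralogue of elongation factor 3, rose by 1.54 ± 0.13. All 20 measured genes of cytosolic aminoacyl-tRNA synthetases fell, with a median of -1.09 against -1.09.

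Cell cycle genes fell at both the G1/S and the mitotic end. In bulk samples, fewer cells of a type and less RNA per cell cannot be told apart. Of G1/S genes 23 of 26 fell, including the G1 cyclins CLN1 and CLN2 by 2.63 ± 0.11 and 2.56 ± 0.13, the S-phase cyclin CLB6 by 2.86 ± 0.12, the cyclin PCL1 by 2.45 ± 0.14 and the repressor NRM1 by 2.63 ± 0.058. CLN3, the most upstream G1 cyclin, rose by 0.65 ± 0.11 against 0.024 without ISP1 (interaction 0.62 ± 0.15). The largest difference of heat with ISP1 from heat alone in the G1/S list, CLN3 included, was 0.042. PCL2 fell by 1.29 ± 0.11 against -0.19 (interaction -1.10 ± 0.15). Of mitotic genes 20 of 22 fell, CLB2 by 2.67 ± 0.10, BUD4 by 2.06 ± 0.10 and HOF1 by 1.74 ± 0.10. ISP1 alone differed from the control by a median of -0.53 in G1/S and -0.51 in mitotic genes. Levels reached with heat were lower with ISP1 for 20 of 26 G1/S and 15 of 22 mitotic genes. They were higher for 0 in each list. Histone genes fell in 7 of 10 cases with a median of -0.39, HTB2 by 1.16 ± 0.12. In the ribonucleotide reductase list RNR1 fell but RNR3, the damage-induced copy, rose by 0.68 ± 0.11 and RFX1, its repressor, by 0.84 ± 0.088.

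The labels give no mating type. In unheated ISP1 cells the mean signals of the 5 genes specific to MATalpha cells ran from 11.32 for SAG1 to 13.36 for MF(ALPHA)1. Those of the 7 genes specific to MATa cells ran from 5.25 for ASG7 to 7.78 for STE6, all above the background limit of 4.89. All 5 alpha-specific genes fell with heat. STE3, the a-factor receptor gene, had 12.05, 11.93 and 11.80 with ISP1 alone and 9.72, 9.57 and 9.37 with heat and ISP1 and fell by 2.37 ± 0.11, and MF(ALPHA)1, which encodes alpha-factor, fell by 1.81 ± 0.13. Of 11 haploid-specific genes 6 fell, FAR1, an arrest factor in the mating response, by 1.98 ± 0.12. Markers of sporulation rose in 12 of 18 cases and fell in 2. With quantile normalization over the yeast probe sets 9 rose and 5 fell. The mean over the YPD arrays was at or under the background limit for 2 of the 18. Among the sporulation markers SPS100, a spore wall gene, rose by 3.19 ± 0.21 against 1.39 without ISP1 (interaction 1.80 ± 0.29), and DMC1, a meiotic recombinase, by 1.41 ± 0.091. Markers of stationary phase rose in 11 of 14, SIP18 by 3.09 ± 0.25, SPG1 by 2.96 ± 0.17 and FMP16 by 3.11 ± 0.16. SNZ1 and SNO1, for vitamin B6 synthesis, fell by 1.30 ± 0.19 and 1.57 ± 0.24.

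Genes of amino acid synthesis fell, and many fell further with ISP1 than without it. The median difference of ISP1 alone from the control was 1.625 for arginine genes and 0.593 for genes of the remaining amino acids. The levels reached with heat were lower with ISP1 for 1 of 11 arginine genes, higher for 2 and not called for 8. For the 46 genes of the remaining amino acids they were lower for 5, higher for 20 and not called for 21. ARG3, the ornithine carbamoyltransferase of arginine synthesis, had 12.07, 12.76 and 12.75 with ISP1 alone and 8.67, 9.57 and 9.58 with heat and ISP1, and fell by 3.25 ± 0.30, to a level 9.51-fold lower. Without ISP1 ARG3 read 8.52, 9.59 and 9.87 in the control and 8.84, 9.65 and 9.80 with heat, a change of 0.10. The interaction of -3.35 ± 0.43 (adjusted p = 8e-06) was the lowest of all genes. The ISP1 arrays stood above the other 3 groups, and the array numbered 1 was the lowest in each of the 4 groups. Arginine genes fell in 9 of 11 measured cases, with a median of -1.67 against -0.035 without ISP1. The interaction was lower for 7 of them, for 9 after median centring or without array 1 of heat with ISP1, and for 10 with the replicate block. ARG1 fell by 2.41 ± 0.34, CPA1, of carbamoyl phosphate synthesis, by 1.97 ± 0.12, ARG8 by 1.84 ± 0.15, ARG4 by 1.67 ± 0.16 and ORT1, the mitochondrial ornithine carrier, by 1.74 ± 0.091. For ARG4 and ORT1 the changes without ISP1 were 0.029 and 0.17, and the interactions -1.70 ± 0.23 and -1.92 ± 0.13.

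HIS4, of histidine synthesis, had 12.79, 13.13 and 13.19 with ISP1 alone and 10.71, 10.75 and 10.90 with heat and ISP1, and read 10.07, 10.64 and 11.10 in the control and 10.73, 11.08 and 11.16 with heat. HIS4 fell by 2.24 ± 0.17 with ISP1, against a change of 0.39 without it (interaction -2.63 ± 0.24). LYS1, the last enzyme of lysine synthesis, fell by 1.46 ± 0.11 against 0.47 (interaction -1.93 ± 0.16), HIS3 by 2.07 ± 0.15 against -0.72 (interaction -1.34 ± 0.21) and HOM3, the aspartate kinase, by 1.69 ± 0.094 against -0.14 (interaction -1.56 ± 0.13). The difference was not called for LEU9 and LYS4. LEU9, of leucine synthesis, fell by 2.87 ± 0.14 against -2.73 and LYS4, the homoaconitase, by 2.86 ± 0.13 against -2.61 (interactions -0.15 ± 0.20 and -0.25 ± 0.18). In all, 43 of 46 genes of the remaining amino acids fell and none rose, with a median of -1.20 against -0.77, and the interaction was lower for 23 and higher for 4. RTC2, for a transporter of basic amino acids in the vacuole, fell by 1.51 ± 0.17 where it had risen by 1.81 without ISP1 (interaction -3.33 ± 0.24). It was 1 of the 61 genes that fell with ISP1 and rose without.

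Sulfur genes were mixed, 8 up and 12 down of 28, with interactions in both directions (11 higher, 7 lower). STR2, the cystathionine gamma-synthase, fell by 2.08 ± 0.12 against -0.33 (interaction -1.75 ± 0.17), and MET13, a methylenetetrahydrofolate reductase, fell by 0.70 ± 0.094 against 0.60 (interaction -1.30 ± 0.13). MMP1, the S-methylmethionine permease, had the highest interaction of all genes, 1.85 ± 0.27. Its change of -0.048 ± 0.19 with ISP1 was not called, against -1.90 without, and MHT1, which uses S-methylmethionine, changed by 0.064 ± 0.14 against -1.63 (interaction 1.69 ± 0.20). Purine synthesis genes fell in 13 of 19 cases. AAH1, the adenine deaminase, fell by 2.17 ± 0.10, BAS1, an activator of the pathway, by 1.70 ± 0.12, while ADE17 rose by 1.48 ± 0.11 against 3.12 (interaction -1.65 ± 0.16).

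Many genes of the phosphate regulon fell less with heat when ISP1 was present. PHO5, the secreted acid phosphatase, had 9.22, 9.21 and 9.19 with ISP1 alone and 8.95, 8.81 and 8.74 with heat and ISP1. The controls read 12.73, 12.18 and 12.27 and heat alone 10.20, 10.37 and 10.30, so all 6 ISP1 arrays lay below all 6 without ISP1. PHO5 fell by 0.37 ± 0.11 against -2.10 (interaction 1.73 ± 0.15), and PHO11, whose probe set may also bind its close copy, fell by 0.19 ± 0.079 against -1.84 (interaction 1.65 ± 0.11). The list had 12 falls, 1 rise and 5 uncalled genes of 18, with a median of -0.34 against -0.96, and the interaction was higher for 10 and lower for 1. Unheated levels of the list had a median difference of -0.80 between ISP1 alone and the control. Heated levels were lower with ISP1 than without it for 15 of the 18 and higher for 0. The fall of PHO11 was not called without any 1 of 5 arrays of the 6, with adjusted p of 0.0503 to 0.258. PHO90, a low-affinity phosphate transporter, fell by 2.05 ± 0.10, and GIT1, which takes up glycerophosphoinositol, rose by 1.43 ± 0.14.

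Among the genes of the blocked pathway, those for serine palmitoyltransferase itself changed little. LCB1 and LCB2, its catalytic subunits, fell by 0.31 ± 0.066 and 0.21 ± 0.069, and TSC3, its small activating subunit, by 0.42 ± 0.13. The change of LCB2 without ISP1 was -0.77 (interaction 0.56 ± 0.10), and its fall with ISP1 was not called without ISP1 array 1 (adjusted p = 0.0909). ORM2, which restrains the enzyme, had 12.30, 12.22 and 12.34 with ISP1 alone and 13.75, 13.66 and 13.67 with heat and ISP1. Its rise of 1.41 ± 0.073 was near the 1.36 without ISP1, whereas ORM1 changed by 0.076 ± 0.066, not called. TSC10, the next enzyme, fell by 0.68 ± 0.053. SAC1, a phosphoinositide phosphatase found with the Orm complex, changed by -0.048 ± 0.076, not called, against -0.75 without ISP1 (interaction 0.70 ± 0.11).

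The ceramidase genes YPC1 and YDC1 rose by 1.04 ± 0.065 and 1.30 ± 0.058, less than the 2.46 and 2.25 without ISP1 (interactions -1.41 ± 0.091 and -0.95 ± 0.082). The ceramide synthase genes LAG1 and LAC1 fell by 0.25 ± 0.067 and 0.30 ± 0.085, and LIP1, their partner subunit, rose by 0.32 ± 0.083. SUR2, the sphinganine hydroxylase, fell by 0.96 ± 0.078, SCS7, the fatty acid hydroxylase of ceramide, by 0.13 ± 0.052 and ISC1, which releases ceramide from complex sphingolipids, by 0.62 ± 0.052. The call of SCS7 was lost without ISP1 array 1 or 2 or heat with ISP1 array 2 or 3 (adjusted p = 0.0579 to 0.137), and with quantile normalization over the yeast probe sets (-0.088, adjusted p = 0.171). Of genes for complex sphingolipids, AUR1 and KEI1, the subunits of inositol phosphorylceramide synthase, fell by 1.08 ± 0.062 and 1.26 ± 0.10. CSH1 and SUR1, the catalytic subunits that add mannose, rose by 1.00 ± 0.10 and 0.45 ± 0.12, and CSG2, their regulatory subunit, by 0.24 ± 0.056. IPT1, the last step, fell by 0.29 ± 0.062 against -0.94 (interaction 0.64 ± 0.088).

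In long-chain base phosphate metabolism LCB5, a sphingoid base kinase, rose by 1.00 ± 0.054 and the main kinase gene LCB4 changed by -0.15 ± 0.065, not called. The phosphatase genes LCB3 and YSR3 fell by 0.61 ± 0.053 and 0.38 ± 0.12, and DPL1, the lyase, rose by 0.28 ± 0.052. Downstream of the lyase HFD1 and FAA1 rose by 1.03 ± 0.063 and 1.24 ± 0.043 and FAA4 fell by 2.23 ± 0.092. RSB1, for a protein that exports sphingoid bases, had 12.04, 11.87 and 11.83 with ISP1 alone and 11.91, 12.15 and 12.07 with heat and ISP1, a change of 0.13 ± 0.13 that was not called. Without ISP1 RSB1 changed by -0.41 (interaction 0.54 ± 0.18), a difference not called without any 1 of 4 of the 12 YPD arrays (adjusted p = 0.0563 to 0.0687). Of fatty acid elongation genes ELO2 and ELO3, which make very long chains, fell by 1.69 ± 0.068 and 1.67 ± 0.068 and ELO1 by 0.67 ± 0.067. PHS1 fell by 0.40 ± 0.068 and ACB1 by 0.12 ± 0.046. With quantile normalization over the yeast probe sets the change of ACB1 was -0.0034 (adjusted p = 0.949), and it was not called without ISP1 array 2 or heat with ISP1 array 1 or 2 (adjusted p = 0.0514 to 0.0561). IFA38 and TSC13, with -0.11 ± 0.051 and -0.12 ± 0.057, were not called.

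**Figure D4:**
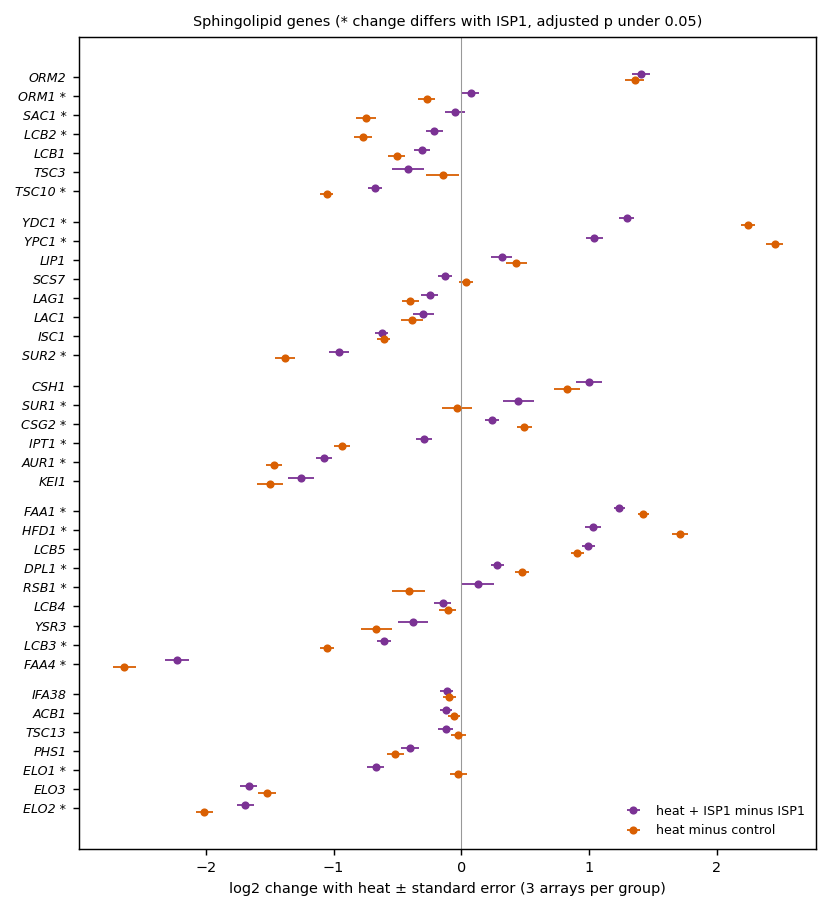
Change with heat (log2, mean of 3 arrays minus mean of 3 arrays) of the sphingolipid genes measured, with ISP1 (purple) and without ISP1 (orange), in blocks for serine palmitoyltransferase, ceramide, complex sphingolipids, long-chain base phosphates and elongation. Bars are standard errors and a star marks genes called in the interaction. FAA4, ELO2 and ELO3 have the largest falls and ORM2 the largest rise with ISP1.

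Genes of the eisosome, a plasma membrane domain tied to sphingolipid signalling, and of the Pkh and Ypk kinases rose in 18 of 21 cases. Their median was 0.56 against 0.69 without ISP1, and the interaction was lower for 11 and higher for 0. ISP1 alone differed from the control by a median of 0.45 in this list. With heat, levels were higher with ISP1 for 8, lower for 3 and not called for 10. YPK2 and YPK1, the kinases downstream of Pkh1, rose by 1.59 ± 0.087 and 0.19 ± 0.055, PIL1 and LSP1, the core coat proteins, by 0.50 ± 0.050 and 0.51 ± 0.047, and SLM1, which links a growth kinase complex to Ypk1, by 1.16 ± 0.087. SUR7, another eisosome-associated membrane protein gene, fell by 1.42 ± 0.061 and GIN4, a septin kinase gene, by 1.81 ± 0.070. Targets of the multidrug resistance factors Pdr1 and Pdr3, many of them exporters, rose in 10 of 19, PDR15 by 1.47 ± 0.15, TPO4 by 1.47 ± 0.10 and PDR10 by 1.00 ± 0.069. PDR10 changed by 0.31 without ISP1 (interaction 0.69 ± 0.10).

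Ergosterol genes fell in 21 of 30 cases. ERG3 and ERG5, late enzymes, fell by 1.62 ± 0.050 and 1.29 ± 0.082 and ARE2, which stores sterol as esters, rose by 1.22 ± 0.087. ERG5 fell less without ISP1, -0.60 (interaction -0.69 ± 0.12), and UPC2, the sterol regulator, rose by 0.52 ± 0.073 against -0.26 (interaction 0.78 ± 0.10). OLE1, the fatty acid desaturase, fell by 1.67 ± 0.059. Phospholipid genes rose in 15 of 22, with a median of 0.50 against 0.11 and 10 members higher in the interaction. INO1, of inositol synthesis, rose by 1.81 ± 0.079 and ITR1, the inositol transporter, by 0.73 ± 0.052, against 1.52 and 0.12 (interaction of ITR1 0.61 ± 0.074). URA7, the CTP synthase, fell by 2.48 ± 0.12. Beta-oxidation genes rose in 15 of 23, POT1, the thiolase, by 2.44 ± 0.25 and ADR1, an activator of the pathway, by 2.03 ± 0.20.

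Of respiratory chain and ATP synthase genes 13 rose, 10 fell and 16 were not called of 39, with a median of 0.050 against 0.31 without ISP1. The interaction was lower for 29 of them and higher for none. ISP1 alone differed from the control by a median of 0.21 in this list. With heat, levels were lower with ISP1 for 10, higher for 3 and not called for 26. NDE2, an external NADH dehydrogenase, rose by 2.58 ± 0.13, CYC7, the minor cytochrome c, by 1.48 ± 0.11 against 3.86 (interaction -2.38 ± 0.16), and COX5B, the hypoxic oxidase subunit, by 1.15 ± 0.082 against 2.80 (interaction -1.65 ± 0.12). CYC1, the main cytochrome c, fell by 0.72 ± 0.064. CYB2, the lactate dehydrogenase that feeds cytochrome c, rose by 1.80 ± 0.10 against 4.53 (interaction -2.73 ± 0.14). Of 16 TCA cycle genes 12 rose and 1 fell, with a median of 0.29 against 0.73 without ISP1, and the interaction was lower for 14. ISP1 alone differed from the control by a median of 0.48 in these genes. With heat, levels were lower with ISP1 for 3, higher for 3 and not called for 10. CIT1, the citrate synthase, rose by 1.11 ± 0.045. Mitochondrial ribosomal protein genes fell in 40 of 66 cases, and the median of the list was -0.19.

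Targets of the cell wall integrity pathway rose in 18 of 27 cases, and the interaction was lower for 17. ISP1 alone differed from the control by a median of 0.18 in this list. With heat, levels were lower with ISP1 for 13, higher for 2 and not called for 12. PIR3, a wall protein gene, rose by 2.49 ± 0.15, SLT2, the pathway's kinase, by 1.44 ± 0.083 and RLM1, its transcription factor, by 1.38 ± 0.10. PRM5 rose by 0.68 ± 0.13 against 2.16 (interaction -1.48 ± 0.18). In the iron regulon 15 of 25 genes rose. FIT2 and FIT3, wall proteins that hold siderophores, rose by 2.5 ± 0.21 and 1.56 ± 0.17 and TIS11, which speeds decay of iron-use transcripts, by 2.37 ± 0.15 against 1.65 (interaction 0.72 ± 0.22). FTR1, the iron permease, fell by 1.11 ± 0.10.

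**Figure D5:**
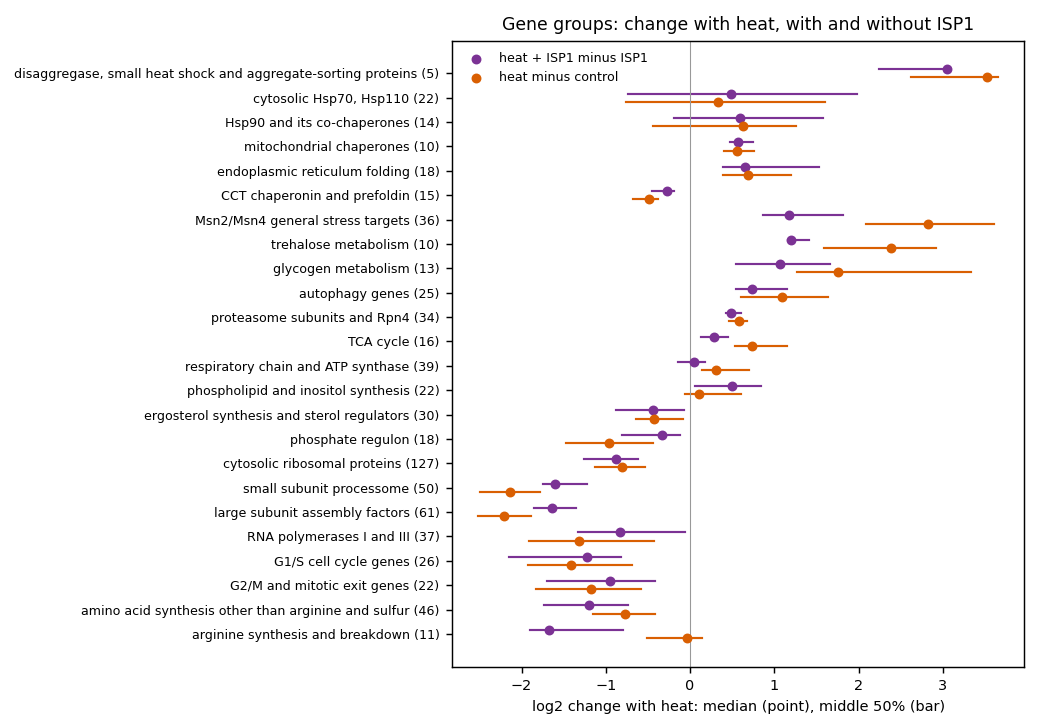
Median change with heat (log2, points) and middle 50% of members (bars) for 24 gene groups, with ISP1 (purple) and without ISP1 (orange), with the number of measured genes in brackets. The medians are furthest apart for the Msn2/Msn4 targets (1.18 with and 2.83 without ISP1) and arginine genes (-1.67 and -0.035), and lie close together for groups such as mitochondrial chaperones and cytosolic ribosomal proteins.

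Other genes with the largest interactions belong to no group above. EGO4, TMA10 and RTC3, strong heat-raised genes of little known function, rose by 2.31 ± 0.10, 2.41 ± 0.22 and 1.37 ± 0.11 with ISP1 against 5.33, 5.43 and 4.36 without it (interactions -3.02 ± 0.15, -3.02 ± 0.31 and -3.0 ± 0.15). SFG1, a putative transcription factor of filamentous growth, fell by 2.47 ± 0.10 against -4.27 (interaction 1.81 ± 0.14). NRG2, a repressor in glucose control, rose by 1.26 ± 0.20 against -0.17 (interaction 1.43 ± 0.29). YLL053C, uncharacterised, changed by 0.020 ± 0.10, not called, against -1.42 (interaction 1.44 ± 0.14).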

How the data were processed

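RNA of S. cerevisiae, extracted with phenol per the labels' protocols, was measured on 21 Affymetrix yeast arrays. The deposited log2 values, 1 column per array, were made by the authors with affy and RMA, per the submitters' processing notes, with versions and settings not given in the sources used. RMA removes background, gives all arrays 1 distribution by quantile normalization, and joins the probes of a set.

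Groups came from the titles. Of 10928 probe sets, 5498 carried 1 S. cerevisiae gene by the platform annotation. For the 47 genes with several probe sets the brightest was used, which gave 5449 genes, 97 of them read by _s_at and 16 by _x_at sets that may bind related transcripts. The 95th percentile of 1746 other-species probe sets, 4.89, was the background limit, and 5355 genes had a mean above it.

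Changes are contrasts in a model of 7 group means fitted to the 21 arrays with limma 3.58.1 (R 4.3.3, lmFit and eBayes), adjusted by Benjamini-Hochberg over all genes at a threshold of 0.05. The interaction is a contrast of the 4 YPD groups in the same fit. Standard errors of changes and interactions are the moderated ones of this fit, with a spread pooled over the 7 groups. Precision is limited by 3 arrays per group. The fit was checked on simulated data. Single genes were not given permutation tests, since 3 against 3 arrays allow no exact p under 0.1.

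Named genes are up to 15 of the largest called rises and as many falls with groups that did not overlap, up to 6 members of each described list (called first, then by size) and up to 4 of it called in the interaction, up to 10 interaction genes in each direction, all sphingolipid genes measured, and a set of control genes. The comparison, gene lists and tests were chosen with earlier results of these data known. Array numbers are those in the titles. Correlations of deviations between same-numbered arrays of the groups compared were 0.350, 0.132 and 0.249, and between unlike numbers -0.341 to 0.181. For heat and control they were 0.207, 0.198 and 0.059, and between unlike numbers -0.2385 to 0.116. Same-numbered arrays thus deviated together in part, so the number was also fitted as a block. Further alternatives were a fit of the compared groups alone, leaving out dim genes, median centring or quantile normalization over genes of the species, a robust prior with an intensity trend, weights for arrays, averaging the probe sets of a gene, a minimum of 2-fold, rank correlation, and leaving out each array. Promoter and protein sequences were not used here.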

Additional observations from a re-analysis of the deposited data

Results flagged for a closer look

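The change with heat differed between cells with and without ISP1 by the interaction test for 2231 of 5449 genes, by limma with Benjamini-Hochberg adjustment, and for each gene below, given as the change with ISP1 minus the change without it (log2). The difference was tested in each case, on 3 arrays in each of 4 groups. Among genes that rose in both settings, the rise was smaller with ISP1, with differences of -3.06 for GPH1, -3.04 for CTT1, -3.02 for EGO4, -3.02 for TMA10, -3.0 for RTC3, -2.79 for SOL4, -2.76 for PGM2, -2.73 for CYB2, -2.38 for CYC7, -1.83 for HSP12, -1.65 for COX5B, -1.65 for ADE17, -1.48 for PRM5, -1.42 for HSP42, -1.41 for YPC1, -1.39 for TPS1, -1.33 for HSP78, -0.99 for SSE2, -0.95 for YDC1 and -0.62 for HSP104. It was larger with ISP1, with differences of 0.38 for STI1, 0.38 for FES1, 0.43 for SIS1, 0.52 for AHA1, 0.58 for YDJ1, 0.61 for ITR1, 0.69 for PDR10, 0.72 for TIS11 and 1.80 for SPS100. Among genes that fell in both settings, the fall was shallower with ISP1, with differences of 0.56 for LCB2, 0.64 for IPT1, 0.89 for KRE33, 1.30 for RRN3, 1.57 for DHR2, 1.61 for LRP1, 1.65 for PHO11, 1.73 for PHO5 and 1.81 for SFG1. It was deeper with ISP1, with differences of -1.75 for STR2, -1.34 for HIS3 and -0.69 for ERG5. Genes called in opposite directions in the 2 settings had differences of -3.33 for RTC2, -2.63 for HIS4, -1.93 for LYS1, -1.30 for MET13 and 0.78 for UPC2. Genes called in only 1 of the 2 settings, or in neither, had differences of -3.35 for ARG3, -1.92 for ORT1, -1.70 for ARG4, -1.56 for HOM3, -1.47 for HXT7, -1.10 for PCL2, 0.54 for RSB1, 0.62 for CLN3, 0.70 for SAC1, 1.43 for NRG2, 1.44 for YLL053C, 1.69 for MHT1 and 1.85 for MMP1. The test of 2 changes does not say whether the unheated or the heated arrays set them apart, and the levels in the 4 groups are given above for the genes described in full. No cause of these differences was tested.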

How the results depend on the processing

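The count of genes changed by heat in ISP1-treated cells, 4206, lay between 4019 and 4080 without any 1 of the 6 arrays, at 4302 with the replicate block and at 4088 with only the arrays compared. A 2-fold minimum left 1105. The interaction count of 2231 lay between 1966 and 2316 without any 1 of the 12 YPD arrays, at 2476 with the replicate block, at 2093 with only the arrays compared and at 2886 with array weights, whose estimation stopped before it converged. A 2-fold minimum left 271. Median centring turned the interaction balance from 1188 higher and 1043 lower to 1019 and 1238. The correlation of the 2 heat changes, 0.903, lay between 0.897 and 0.907 without any 1 array. Of 218 genes named for the change in ISP1-treated cells, 208 kept their side of the threshold under every alternative run, and of 61 named for the interaction 60 did. No named called gene changed sign under these alternatives. Calls of LCB2, PHO11, SCS7, ACB1 and RRN3, and the interaction of RSB1, were lost under some, and IFA38, TSC13, LCB4, ORM1 and MHT1 were called under some. With only the arrays compared LCB2, PHO11, SCS7 and ACB1 were not called (adjusted p = 0.0568 to 0.108). Among these, the replicate block changed the call of LCB4 (adjusted p = 0.0337 with the block and 0.0506 without) and no other. In the gene groups it moved the arginine genes lower in the interaction from 7 to 10 and the proteasome genes from 3 to 5. Genes higher in the interaction went from 31 to 41 in the small subunit processome and from 44 to 52 in the large subunit factors. These counts were 45 and 53 without array 1 of heat with ISP1, and 30 and 41 after median centring. Counts of other groups moved as well. The cause was not tested. Signals near the background limit or near the top of the range limit the size of changes that can be read.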
